A study of Mus musculus with 6 samples.

Results

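Sox genes encode transcription factors that share an HMG box, the domain with which they bind and bend DNA. They are sorted into groups by the relatedness of that domain, and the groups have separate textbook roles: SoxB1 proteins (Sox2) hold stem and progenitor states, SoxC (Sox4, Sox11) act in embryonic progenitors and neurons, SoxE (Sox9, Sox10) in cartilage, hair follicle and neural crest derivatives, SoxD (Sox5, Sox6) beside Sox9 in cartilage, and SoxF (Sox7, Sox17, Sox18) in blood and lymphatic vessels. In stratified epithelium Sox2 is known from oral, esophageal and genital squamous tissue and as an oncogene of squamous carcinoma, and Sox9 from the hair follicle. The 10 genes described here are Sox2, Sox21, Sox4, Sox11, Sox6, Sox9, Sox7, Sox17, Sox18 and Sox15, taken by symbol from the 24063 symbols measured. The other 10 Sox genes of the files (Sox1, Sox3, Sox5, Sox8, Sox10, Sox12, Sox13, Sox14, Sox30 and Sry) are given for comparison.

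RNA sequencing covered fresh tissue of 6 mice aged 5 months: tumors of the penis from 3 SA animals and normal epithelium of the penis from 3 WT animals of the strain C57BL/6. SA mice have the genotype PB-Cre+ Smad4L/L ApcL/L, in which Cre is made from a promoter active in androgen-responsive epithelium, so that deletion of Smad4 and Apc is directed to such cells. No carcinogen was given, and the WT mice carried neither Cre nor the floxed alleles. A sample held 23828283 to 110509147 counts over its gene rows, the deepest being SA tumor replicate 3 at 4.42 times the median of the other samples. Levels are given as CPM, counts scaled to library size with TMM factors, and a level of 3 counts corresponds to 0.0244 to 0.137 CPM, which covers counting error only. Smad4 was 36.6, 36.1 and 46.1 CPM in the SA tumors and 61.2, 69.7 and 72.5 CPM in the WT penises, a log2 fold change of -0.77 ± 0.13 (SE, edgeR quasi-likelihood test, adjusted p = 0.00114). Apc was higher in the tumors (log2 fold change 1.43, adjusted p = 0.000185 by edgeR). Reads of Smad4 and of Apc were counted over the whole transcript, so neither value checks the deletion of its gene.

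Of the 10 Sox genes, 3 were higher in SA tumors and 0 lower by edgeR when both thresholds were applied, namely an adjusted p under 0.01 together with a log2 change of 2 or more in either direction. These were Sox2, Sox4 and Sox11. The count of 0 lower was also 0 by DESeq2 and limma-voom. At an unadjusted p under 0.05 by edgeR, with no fold threshold, 4 were lower. No share of all genes is given for that count, so it is no result about Sox genes. Over all 16336 genes tested the adjusted p and fold thresholds together called 9.41% higher and 3.59% lower. At the adjusted p alone 3 were higher and 2, Sox9 and Sox15, were lower, against 20.1% and 17.5% of all genes, and 5 passed in neither direction. The 3 SA tumors lay above all 3 WT penises for 5 of the genes, below for 3 and overlapped them for 2, where the shares over all genes were 32.7%, 30.7% and 36.6%. The median log2 fold change was 0.11 over the 10 genes and 0.03 over all genes. All 10 passed the filter on low counts. In tissue of mixed cells, fewer cells of a type and less RNA per cell cannot be told apart.

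The sequences just before the starts of the 3 genes that rose and of Sox15, the gene that fell most among the 10, are shown to give the sequence context of the genes whose levels changed most among the 10. They are the 250 bases upstream of the start in RefSeq's GRCm38.p6 annotation, 5′ to 3′ on the gene's own strand, at chr3:34649745-34649994 (Sox2, + strand), chr13:28953700-28953949 (Sox4, - strand), chr12:27342719-27342968 (Sox11, - strand) and chr11:69654787-69655036 (Sox15, + strand). Capitals mark matches on either strand to one of 4 motifs. The TCF/LEF motif, which is bound by the partners of beta-catenin, was searched as CTTTGAA and, with another ending, as CTTTGAT. It was also searched with a different base in the last position but one, that is as CTTTGTA and, again with the other ending, as CTTTGTT. The SOX motif was searched as ACAAAG and in further forms, of which the first was ACAATG while the remaining form was ACAATA. The CCAAT box and the TATA box, core promoter elements, were searched as their names spell them, the latter with the letters TATAAA.
Sox2: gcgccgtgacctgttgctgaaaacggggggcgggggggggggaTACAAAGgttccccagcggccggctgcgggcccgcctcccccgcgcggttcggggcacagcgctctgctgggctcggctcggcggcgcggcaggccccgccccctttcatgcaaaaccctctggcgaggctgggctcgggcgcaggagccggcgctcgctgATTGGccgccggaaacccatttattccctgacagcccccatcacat
Sox4: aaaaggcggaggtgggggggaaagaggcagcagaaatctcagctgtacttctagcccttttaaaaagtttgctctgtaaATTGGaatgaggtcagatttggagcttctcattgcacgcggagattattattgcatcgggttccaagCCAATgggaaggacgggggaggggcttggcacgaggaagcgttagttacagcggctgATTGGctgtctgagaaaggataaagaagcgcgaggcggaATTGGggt
Sox11: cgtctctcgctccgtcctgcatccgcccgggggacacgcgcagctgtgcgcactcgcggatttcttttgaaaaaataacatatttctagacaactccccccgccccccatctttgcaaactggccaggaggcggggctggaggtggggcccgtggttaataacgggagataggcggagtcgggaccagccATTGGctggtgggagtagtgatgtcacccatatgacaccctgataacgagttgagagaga
Sox15: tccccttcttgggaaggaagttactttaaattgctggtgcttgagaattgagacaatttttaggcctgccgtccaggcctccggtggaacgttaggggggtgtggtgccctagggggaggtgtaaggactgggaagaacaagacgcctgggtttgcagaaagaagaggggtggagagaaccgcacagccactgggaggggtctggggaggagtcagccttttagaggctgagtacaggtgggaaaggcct

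The Sox2 window held 1 TCF/LEF word, whose first base is at -207 from the start and which overlaps the single SOX word at -206, since both read the same bases on opposite strands, and 1 CCAAT box at -46. The Sox4 window held 4 CCAAT boxes and neither a TCF/LEF nor a SOX word. The Sox11 window held 1 CCAAT box at -60, and the Sox15 window held no match. Over 32851 promoter windows of the same length 14.8% held a TCF/LEF word, 30.5% a SOX word, 33.8% a CCAAT box and 12.4% a TATA box. The share of G and C was 72.0% for Sox2, 58.0% for Sox11, 55.6% for Sox15 and 50.8% for Sox4, where the median of all windows was 52.4%. Sox21 and Sox6 also had entries, 6 of the 10 genes in all. The Sox21 window held no match. Sox6, which did not pass the threshold, had several windows, all with a TCF/LEF word except that at chr7:115824711-115824960. Its window at chr7:115995087-115995336 held 3 TCF/LEF and 4 SOX words, so the TCF/LEF word was not particular to Sox2. A match is a run of letters and no measurement of binding.

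Sox2 (NM_011443, chr3:34649995-34652461), the SoxB1 factor that maintains pluripotent and epithelial progenitor cells, showed the largest change of the 10 genes. Its level was 101.5, 109.8 and 53.6 CPM in the 3 SA tumors and 0.452, 0.467 and 0.820 CPM in the 3 WT penises. These values rest on 2732, 3318 and 6597 counts in the tumors and on only 10, 14 and 18 counts in the WT penises. The groups did not overlap, and the tumor with the lowest level was the deepest library, replicate 3. Sox2 rose with a log2 fold change of 7.26 ± 0.40 (SE, n = 3 per group), 153.7-fold, with an edgeR quasi-likelihood adjusted p of 7.36e-06. Leaving out each library in turn gave log2 fold changes of 7.07 to 7.55.

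Sox2 lies inside Sox2ot, a long noncoding RNA gene on the same strand, so that reads of the 2 genes can be confused where their exons meet. Sox2ot was between 8.89 and 15.4 CPM in the tumors and 0.271 to 0.501 CPM in the WT penises, and rose by a log2 fold change of 4.94 ± 0.33 (edgeR, adjusted p = 9.77e-06). No other tested gene starts within 500 kb of the start of Sox2. The nearest 3 tested genes on each side, chosen after that window had been seen to hold none, all differed by less than 1 on the log2 scale, and 4 of the 6 passed the adjusted p threshold (edgeR). Upstream, Fxr1, an RNA-binding protein gene, rose by 0.39 at -630.5 kb (adjusted p = 0.00764), Dnajc19 fell by 0.49 at -569.1 kb (adjusted p = 0.00808) and Ccdc39 gave 0.11 (adjusted p = 0.661). Downstream, Atp11b at 1104 kb fell by 0.73 (adjusted p = 0.00252), Dcun1d1 fell by 0.47 (adjusted p = 0.00940) and Mccc1os gave 0.61 (adjusted p = 0.120).

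Sox21 (NM_177753, chr14:118233233-118237030), a SoxB2 gene whose product counters SoxB1 proteins in neural progenitors and which is active in hair shaft cuticle, was 42.0, 49.9 and 33.8 CPM in SA tumors and 32.1, 27.1 and 30.1 CPM in WT penises. Every tumor was above every WT penis. The log2 fold change was 0.49 ± 0.15, and the adjusted p of 0.0259 (edgeR) missed the threshold. It passed without SA tumor replicate 3 (0.63, adjusted p = 0.00453 by edgeR), the only one of the 6 left-out libraries for which it did, and with library totals as the only scaling (0.78).

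**Figure D1:**
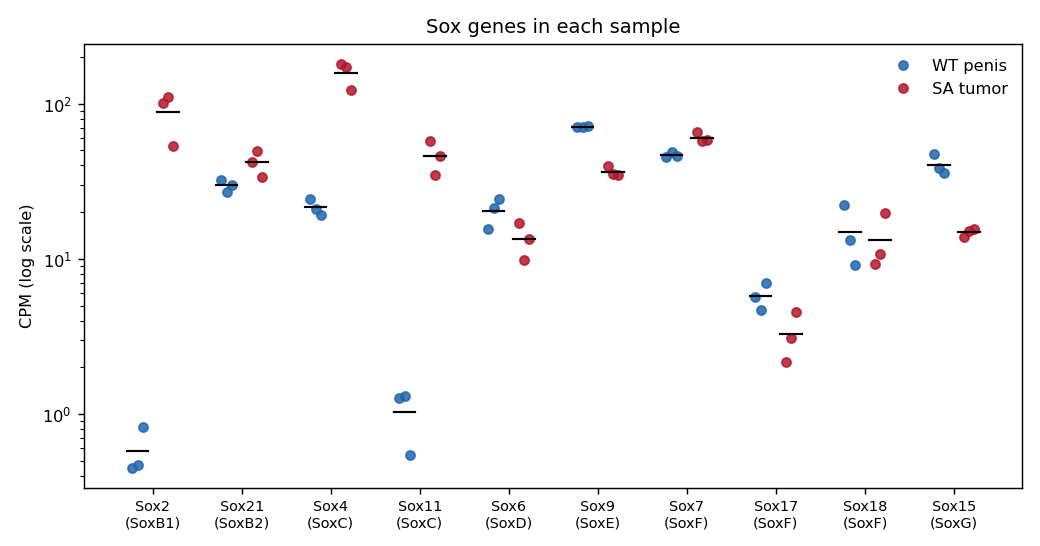
CPM on a log axis for the 10 Sox genes in 3 WT penises (blue) and 3 SA tumors (red), each point a sample and each black bar a group mean, with the gene's group in brackets. Sox2, Sox4 and Sox11 separate widely upward in the tumors, Sox9 and Sox15 separate downward, and Sox18 and Sox6 overlap.

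Of the 3 SoxC genes, Sox4 and Sox11 rose and Sox12 did not pass (log2 fold change 0.17, edgeR adjusted p = 0.289, groups overlapping). Sox4 (NM_009238, chr13:28948919-28953699), a driver of progenitor survival and of invasion programs in carcinoma, was 179.9, 172.0 and 123.3 CPM in SA tumors against 24.5, 21.0 and 19.1 CPM in WT penises. The lowest tumor was far above the highest WT penis, and the log2 fold change was 2.88 ± 0.17 (7.35-fold, edgeR adjusted p = 5.68e-06). It already had counts in every WT library, between 419 and 629.

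Sox11 (NM_009234, chr12:27334268-27342718), which is best known from the embryonic nervous system and from mantle cell lymphoma, was 57.7, 34.6 and 46.1 CPM in SA tumors. In WT penises it was 1.27, 1.30 and 0.547 CPM, on 28, 39 and 12 counts. The groups were widely apart, and the log2 fold change was 5.45 ± 0.32 (43.6-fold, edgeR adjusted p = 5.81e-06). Tubb3 and Tead2, which are targets of SoxC proteins in neurons and other progenitors, both rose (log2 fold changes 4.75 ± 0.23 and 2.10 ± 0.14). They are the only 2 genes of that list. Over all genes 20.1% were higher at the adjusted p alone and 9.41% past both thresholds.

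The SoxE gene Sox9 (NM_011448, chr11:112782210-112787757), a factor of hair follicle stem cells and cartilage, was 39.5, 35.2 and 34.6 CPM in SA tumors. In WT penises it was 71.2, 70.7 and 71.9 CPM, so close together that their SD was 0.581 CPM. The groups did not overlap, and Sox9 fell with a log2 fold change of -0.97 ± 0.09 (edgeR adjusted p = 6.83e-05), 1.96-fold, which is short of the fold threshold. It kept this call in all 6 fits that left out a library.

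Sox15 (NM_009235, chr11:69655037-69656727), the sole SoxG gene, known from muscle progenitors and stratified epithelium, was 13.8, 15.2 and 15.6 CPM in SA tumors and 47.1, 38.7 and 35.9 CPM in WT penises. The lowest WT penis was well above the highest tumor. Sox15 fell with a log2 fold change of -1.45 ± 0.13 (edgeR adjusted p = 4.86e-05), 2.73-fold, again short of the fold threshold. It overlaps Mpdu1, a gene of protein glycosylation on the opposite strand, whose log2 fold change was -0.12 (adjusted p = 0.463 by edgeR).

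The SoxD gene Sox6 (NM_011445, chr7:115470872-116040776), which acts beside Sox9 in cartilage and in erythroid and muscle fiber differentiation, was 17.0, 9.90 and 13.5 CPM in SA tumors and 15.6, 21.4 and 24.3 CPM in WT penises. One tumor exceeded one WT penis, and the log2 fold change of -0.60 ± 0.23 did not pass (edgeR adjusted p = 0.0528). Its 6 transcript rows held nearly equal counts in every sample.

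The 3 SoxF genes of vessels did not pass the threshold in either direction. Sox7 (NM_011446, chr14:63943706-63950732) was 65.3, 57.2 and 58.3 CPM in SA tumors and 45.7, 48.9 and 45.7 CPM in WT penises. Every tumor was above every WT penis, yet the log2 fold change was only 0.36 ± 0.10 (edgeR adjusted p = 0.0127). It passed by DESeq2 (adjusted p = 0.00705), with upper quartile scaling and with library totals as the only scaling, where the log2 fold change was 0.65.

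Sox17 (NM_011441, chr1:4490928-4497426), an arterial and endoderm factor, was 2.16, 3.11 and 4.58 CPM in SA tumors and 5.65, 4.71 and 7.02 CPM in WT penises. All tumors were below all WT penises by a narrow margin, with a log2 fold change of -0.79 ± 0.30 and an edgeR adjusted p of 0.0544. Without SA tumor replicate 3 it passed (-1.13, adjusted p = 0.00933 by edgeR). Sox18 (NM_009236, chr2:181669837-181671640), which works with Prox1 at the start of lymphatic vessels, was 9.25, 10.8 and 19.7 CPM in SA tumors and 22.2, 13.2 and 9.16 CPM in WT penises. The groups overlapped widely, the spread within each exceeded the difference, and the log2 fold change was -0.15 ± 0.39 (edgeR adjusted p = 0.770). Its sign turned in 4 alternatives, leaving out WT penis replicate 1 (0.25) or SA tumor replicate 1 (0.047) among them.

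**Figure D2:**
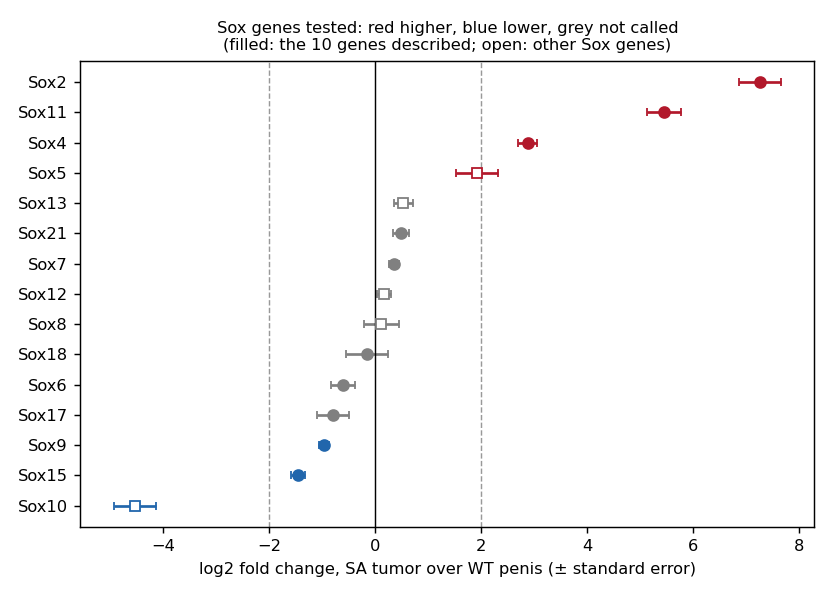
Log2 fold change of SA tumor over WT penis with its standard error for the 15 Sox genes tested, with filled points for the 10 genes described and open squares for other Sox genes, and dashed lines at -2 and 2. Sox2, Sox11 and Sox4 lie beyond 2 and Sox10 beyond -2.

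Because SoxF genes are known from blood and lymphatic vessels, their levels were set beside a list of 12 endothelial markers. Which cells their reads came from in this tissue was not tested. Of the 12, 5 fell (Emcn -1.87, Esam -1.26, Erg -1.13, Tie1 -1.01 and Pecam1 -0.92 on the log2 scale) and none rose (edgeR), beside 17.5% lower and 20.1% higher over all genes. The median log2 fold change of the list was -0.88, beside 0.03 over all genes. The summed level of the list was 222.1 to 389.5 CPM in SA tumors and 439.1 to 550.3 CPM in WT penises, with no overlap. Cdh5, the cadherin of endothelial junctions, gave -0.03 (adjusted p = 0.861). The count of 5 depended on the method and the libraries. It was 8 by DESeq2, 4 by limma-voom and 1 with library totals as the only scaling. It was 1 without SA tumor replicate 2, WT penis replicate 1 or WT penis replicate 2, 3 without WT penis replicate 3, and 8 without SA tumor replicate 3.

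Relative to the mean log2 level of the endothelial markers, Sox7 was 1.23 higher in SA tumors than in WT penises on the log2 scale and Sox18 was 0.72 higher, each with no overlap of the groups (exact permutation test, two-sided p = 0.1, the smallest that 3 against 3 samples allow). Sox17 differed by 0.01 (p = 1, exact permutation test). Set against Cdh5 alone, Sox7 was 0.41 higher (p = 0.2, exact permutation test, the groups no longer apart). Sox17 was then -0.81 with its groups apart (p = 0.1, exact permutation test) and Sox18 was -0.10. The size of all 3 and the sign of the last 2 thus depended on the reference. The 3 lymphatic markers did not move together: Prox1, the lymphatic identity factor, rose from 2.31, 4.04 and 3.92 CPM in WT penises to 145.2, 82.0 and 84.4 CPM in SA tumors (log2 fold change 4.91), Lyve1 fell (-1.31) and Flt4 gave -0.74 (adjusted p = 0.153, edgeR). No marker of this list fell in 4 of the 6 fits that left out a library. Prox1 is also expressed in other cell types, and how much of its level came from vessels was not tested.

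Sox9 and Sox15 were set beside 9 epithelial markers in the same way. Of these, 5 fell at the adjusted p alone, Dsp (-1.23), Krt5 (-1.21), Jup (-1.06), Trp63 (-0.82) and Esrp1 (-0.79), and Epcam rose (2.35). Over all genes 17.5% were lower and 20.1% higher at that threshold. Krt14 gave -0.49 (adjusted p = 0.0504, edgeR) and the median of the list was -0.79. These markers were abundant in both groups, with summed levels of 14387 to 16167 CPM in SA tumors and 27379 to 29434 CPM in WT penises. Relative to the list mean Sox9 differed by -0.59 and Sox15 by -1.06 on the log2 scale between SA tumors and WT penises, with no overlap of the groups (exact permutation test, two-sided p = 0.1 for each). The list mean itself differed by only -0.38 and includes Epcam, which rose. A mean without Epcam would be lower in the tumors and both differences smaller, and these were not computed. Set against Krt14 alone, Sox9 differed by -0.49 and its groups were no longer apart (p = 0.2, exact permutation test). Sox15 then differed by -0.96 with its groups still apart (p = 0.1, exact permutation test).

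**Figure D3:**
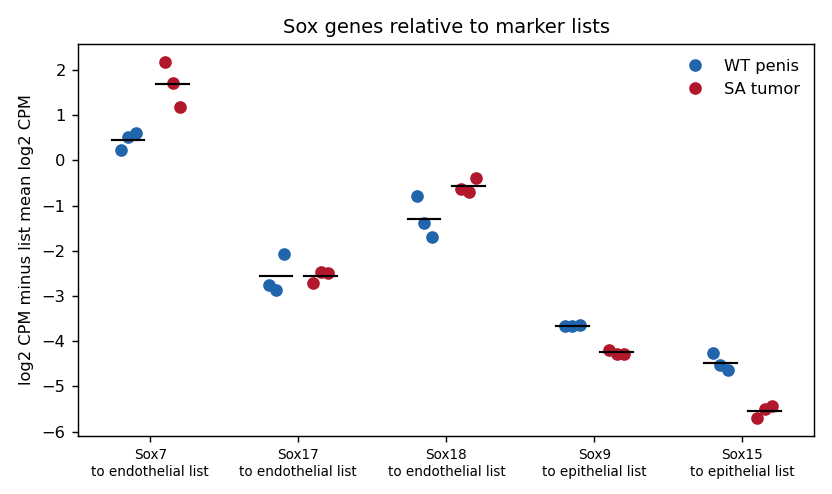
Log2 CPM of each Sox gene minus the mean log2 CPM of 12 endothelial or 9 epithelial markers, in 3 WT penises (blue) and 3 SA tumors (red), with black bars for group means. Sox7 and Sox18 lie higher in the tumors, Sox9 and Sox15 lower, and Sox17 is level.

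The make-up of Sox transcripts in a sample was described with TPM, which divides counts by transcript length. Summed over 20 Sox genes, TPM was 352.7, 334.9 and 276.6 in the SA tumors and 161.2, 157.5 and 156.1 in the WT penises. These sums carry no TMM scaling, and the 2 units can differ in direction. Sox18 averaged 14.6 TPM in SA tumors and 12.4 TPM in WT penises, but 13.2 and 14.9 CPM. How much of the difference in the sums came from scaling was not tested. In WT penises Sox15 was the highest Sox gene, at 48.7 ± 3.85 TPM (SD, n = 3), followed by Sox9 at 23.6 ± 1.52 and Sox7 at 19.7 ± 1.57. Their ranges did not overlap, and Sox13 came next at 16.2 ± 1.33. In SA tumors Sox4 was the highest at 94.9 ± 16.9 TPM and Sox2 the second at 63.4 ± 20.5, and in that order their ranges touched, since the top Sox2 value of 76.5 was just above the lowest Sox4 value of 76.2. Sox7 and Sox13 came next at 32.8 ± 2.89 and 30.2 ± 7.07, and Sox15 at 23.2 ± 1.64.

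As a share of the TPM of the 20 Sox genes, Sox2 went from 0.208% in WT penises to 19.4% in SA tumors and Sox4 from 6.29% to 29.4%. Sox15 went from 30.7% to 7.33% and Sox9 from 14.9% to 4.89%. Sox7 held 12.4% and 10.3% and Sox21 6.79% and 6.07%. TPM is not TMM scaled, and these shares are a description with no test.

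**Figure D4:**
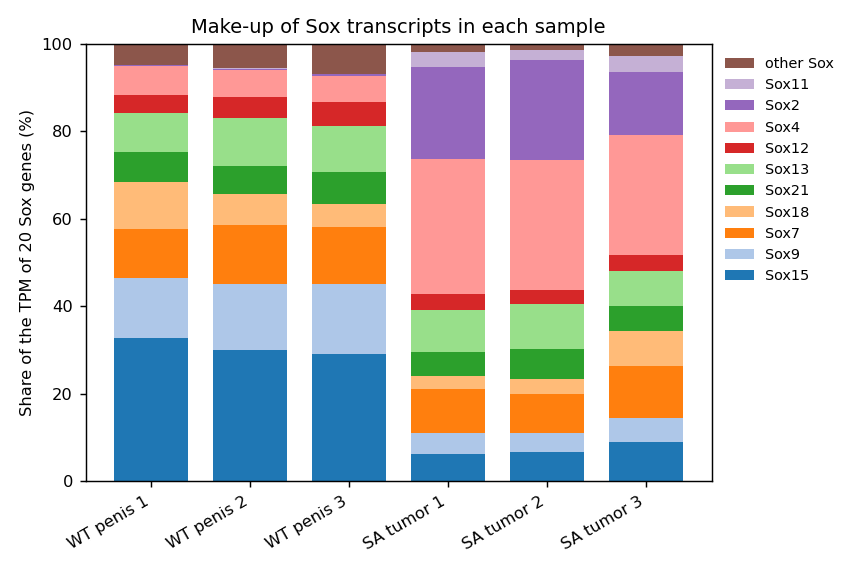
Stacked shares, in percent, of the TPM of 20 Sox genes in 3 WT penises and 3 SA tumors. Sox15 and Sox9 take the largest part of the WT columns and Sox4 and Sox2 the largest part of the tumor columns.

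Among the other 10 Sox genes, 5 passed the filter on low counts. Sox10, the SoxE factor of Schwann cells and melanocytes, was 0.0743, 0.397 and 0.284 CPM in SA tumors and 6.19, 5.74 and 6.47 CPM in WT penises. The groups were far apart, and Sox10 fell with a log2 fold change of -4.53 ± 0.40 (23.1-fold, edgeR adjusted p = 3.96e-05). Sox5, a SoxD partner of Sox9, was 2.86, 2.42 and 4.94 CPM in SA tumors and 1.31, 0.668 and 0.775 CPM in WT penises, a log2 fold change of 1.92 ± 0.39 (edgeR adjusted p = 0.00350). Sox5 lost its call without WT penis replicate 2 (1.70, adjusted p = 0.0186) or replicate 3 (1.80, adjusted p = 0.0162). Sox13 (0.54), Sox12 (0.17) and Sox8 (0.12) did not pass, and Sox13 passed without SA tumor replicate 3 (0.74, adjusted p = 0.000645 by edgeR). Sox1, Sox3, Sox14 and Sox30 were at most 0.557 CPM in any sample, and Sry was at 0 in all 6. Sox14 had 15, 8 and 39 counts in the tumors and 0 in each WT penis.

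Genes that are known partners, targets or cell markers of Sox factors were counted from lists at the adjusted p alone, which called 20.1% of all genes higher and 17.5% lower. Of 10 genes listed as pluripotency partners or as targets of Sox2, 4 passed the filter and 3 rose. These were Fgf4 (log2 fold change 8.17 ± 0.34), a growth factor whose enhancer Sox2 binds with Oct4 in embryonic stem cells, Sall4 (5.76 ± 0.95) and Nes (0.51 ± 0.13). Sall4 and Nes are at or near a limit, Sall4 because it was 0.364 to 1.22 CPM in SA tumors and 0 in 2 of 3 WT penises, and Nes because its adjusted p was 0.00941 (edgeR). Fgf4 was 100.9, 55.3 and 68.9 CPM in the tumors and 0.200 to 0.362 CPM in WT penises. Lefty1 gave -0.79 (adjusted p = 0.01003, edgeR). Pou5f1, which encodes the Sox2 partner Oct4, was at 0 in all 6 samples and Nanog was at most 0.111 CPM.

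Of 8 squamous transcription factors, 3 rose and 4 fell at the adjusted p alone, beside 20.1% higher and 17.5% lower over all genes. Pax9 (4.90 ± 0.82) and Pitx1 (3.17 ± 0.15), factors of oral and appendage epithelium, and Tfap2c (1.21) rose, and Foxn1 (-1.43), Klf4 (-1.05), Klf5 (-0.999) and Trp63 (-0.82) fell (edgeR). Pax9 was at 0.706 to 1.32 CPM in the tumors and at 0 in 2 of 3 WT penises. Of 6 Merkel cell markers tested, a cell type whose development needs Sox2, 4 rose: Krt18 (8.08), Krt8 (7.14), Chga (3.96) and Piezo2 (2.59). Isl1 fell (-1.79), and the defining factor Atoh1 was at 0.0487 to 0.111 CPM in the tumors and Pou4f3 at 0.132 to 0.252. Krt8 and Krt18 are keratins of any simple epithelium.

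Of 7 cartilage genes tested, 6 rose, 5 of them past both thresholds, while Sox9, the master regulator of cartilage, fell in the same tumors. Over all genes 20.1% were higher at the adjusted p alone and 9.41% past both thresholds. The largest were the collagen genes Col2a1 (6.43 ± 0.51), Col9a2 (5.48), Col9a1 (4.51) and Col9a3 (4.38), and their levels were low, with Col2a1 at 5.86 to 6.61 CPM in SA tumors. The median of the list was 4.38, and its summed level was 59.0 to 64.4 CPM in SA tumors and 4.29 to 5.06 CPM in WT penises. Acan, the cartilage proteoglycan, gave -0.30 (adjusted p = 0.617, edgeR), and Matn1 and Matn3 were under the filter.

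Of 7 Schwann cell markers, 6 fell along with Sox10, 4 past both thresholds (edgeR), among them Cdh19 (-3.74 ± 0.63), a cadherin of Schwann cell precursors, Pmp22 (-3.22 ± 0.41), a peripheral myelin protein, and S100b (-2.15 ± 0.40). Over all genes 17.5% were lower at the adjusted p alone and 3.59% past both thresholds. Over the fits that left out 1 library, 5 to 6 of these markers fell, 3 to 4 past both thresholds. Pmp22 was 7.92, 20.6 and 26.1 CPM in SA tumors and 181.8, 159.2 and 175.0 CPM in WT penises, with no overlap. The list was 142.3 to 170.6 CPM in sum in SA tumors and 499.5 to 534.1 CPM in WT penises. Of the 2 melanocyte markers tested, neither passed (Dct 0.37, Pmel 0.23). The part of nerve in the fall of Sox10 was not tested.

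Of 6 hair follicle stem and sheath genes, 5 fell, as Sox9 did: Krt15 (-3.61 ± 0.16), Cd34 (-2.11), Tcf7l1 (-1.51), Nfatc1 and Lgr5, where 17.5% of all genes were lower. Lhx2 rose (6.62 ± 0.52) from between 0 and 0.364 CPM in WT penises to 14.9, 13.1 and 16.8 CPM in SA tumors. Of 4 dermal papilla markers, a hair-inducing fibroblast type in which Sox2 is known to be expressed, Crabp1 (1.92) and Vcan (1.81) rose, while Corin (0.41) and Alpl (0.41) did not pass. Of 5 skeletal muscle genes tested, set beside Sox6 and Sox15, Pax7 (3.50) and Myh1 (3.25) rose, Ckm fell (-3.71) and Acta1 gave -0.77 (adjusted p = 0.0903, edgeR). All of these muscle genes were below 8 CPM. Over the fits that left out 1 library, 1 to 3 muscle genes rose. The share of all genes higher at the adjusted p alone was 20.1%.

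**Figure D5:**
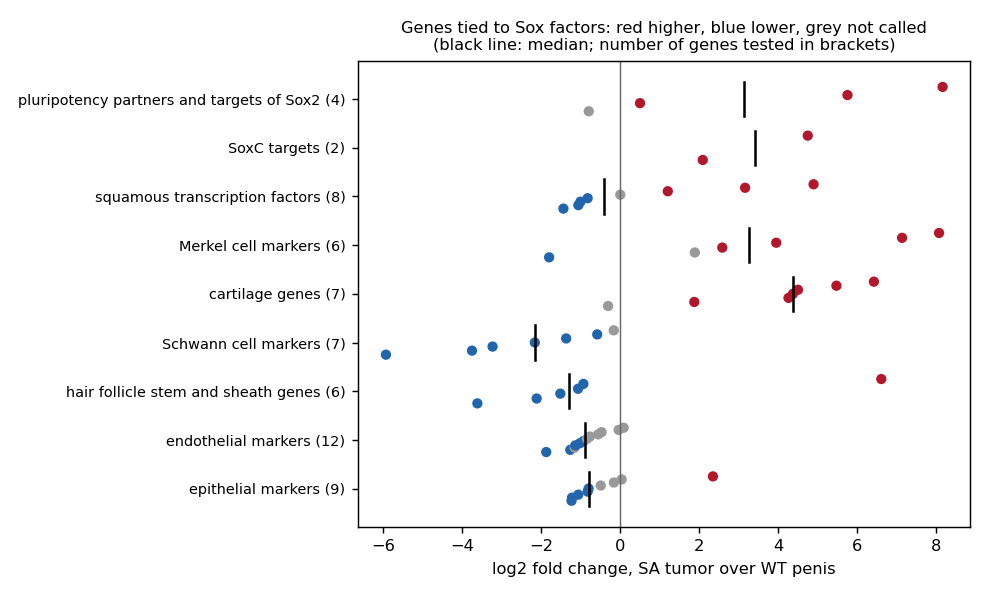
Log2 fold changes, SA tumor over WT penis, of the genes tested in 9 lists, each point a gene (red rose, blue fell, grey not called) and each black bar the median of a list. Cartilage genes sit to the right except Acan, and Schwann cell markers to the left.

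Around the 10 genes, the genes whose starts lie within 500 kb were also read. Both tested genes near Sox4 passed both thresholds and rose, 2610307P16Rik (4.41) and A330102I10Rik (4.56), at -68.09 and 60.69 kb from its start in genome coordinates. These counts stand beside 9.41% of all genes higher and 3.59% lower past both thresholds. Of 52 tested genes near Sox15, 3 passed both thresholds, Alox8 (4.55), Cldn7 (4.14) and Mgl2 (-2.83). Of 22 near Sox18 only Myt1 (5.16), a neural zinc finger gene, passed them, and of 7 near Sox7 only Tdh (2.48). None of the 4 near Sox21, 5 near Sox6, 3 near Sox17 or 2 near Sox9 passed both. Sox11 had no tested gene in the window.

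Among the 5 genes most like Sox2 over the 6 samples, out of the 13822 genes averaging 100 counts or more, were Myh7b, Krt8, Gad2 and Chrnd, with root mean square distances of 0.210, 0.247, 0.293 and 0.326 on the log2 scale between centered profiles. Like Sox2, Krt8 was lowest among the tumors in replicate 3 (238.3, 287.3 and 134.1 CPM). For Sox18 the most like were Tmigd1 (0.0742), 2610528A11Rik (0.147), Meox1 (0.159), Cdkn3 (0.176) and Bst1 (0.205). None of these 5 passed the threshold, as was so for Sox18 itself. Shared traits of this kind, for Krt8 and for these 5 genes, follow from how the genes were chosen. A likeness over 6 samples is a description.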

How the data were processed

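RNA of 3 SA tumors and 3 WT penises was sequenced, and per the labels and methods TopHat (build mm10), FastQC and HTSeq were the authors' tools for alignment, quality checks and counts. Versions and counting options are not given in the sources used here. The deposited files hold, per RefSeq transcript, raw counts and, derived from them by the authors, FPKM and TPM. For each of 24063 symbols the row with the highest mean count was used. Counts were filtered by filterByExpr (10 counts, 15 in total), scaled by TMM and compared in R 4.3.3 with edgeR 4.0.16 (quasi-likelihood, robust, Benjamini-Hochberg over 16336 genes). TPM served only to set genes side by side, and FPKM was not used. Log levels had a prior count of 2. limma 3.58.1 and DESeq2 1.42.0, other scalings, filters, row choices and left-out libraries were alternatives, and the fit was tested on simulated data.

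The 10 Sox genes and the lists were chosen with earlier results of these data known. Genes are named by a rule: the 10 genes, other Sox genes, the model genes, up to 4 genes per list with the largest change plus Pecam1, Cdh5, Trp63, Krt14, Fgf4, Prox1 and Col2a1, neighbors within 500 kb, and the 5 genes most like Sox2 and Sox18. A few genes under this rule are not reported here. The Sox2 flanking genes beyond 500 kb, and a few further list members named beside them, were chosen after their values were seen. The residuals of same-numbered samples correlated at -0.13, -0.10 and 0.02, and those of differently numbered samples at -0.15 to 0.21. With 3 samples per group these values cannot show whether replicate numbers pair the samples, and the main fit used no pairing. Nothing in the labels says more of the replicates than that they are separate samples, while the paper states 3 SA mice and 3 samples per genotype. The p-values set a group difference against the spread between these samples. Python 3.11.15 was used for summaries.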

Additional observations from a re-analysis of the deposited data

How the results depend on the processing

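The counts of Sox genes past both thresholds, 3 higher and 0 lower, came out the same under DESeq2, limma-voom, glmTreat, other scalings and filters, other row choices, the thinned deepest library and each left-out library. At an unadjusted p under 0.05 by edgeR 9 of the 10 Sox genes passed, all but Sox18. No share of all genes at this threshold is given here, so the count is no result about Sox genes. At the stricter adjusted p alone 20.1% of all genes were already higher and 17.5% lower. With library totals as the only scaling, which moves the median of all genes to 0.31, 5 were higher at the adjusted p alone. The replicate block, with the replicate number as a term, left 3 higher and 2 lower at the adjusted p alone. Nothing in the labels says that these numbers pair the samples. Sox18 reversed to 0.030 with limma-voom and to 0.15 with library totals, and ranged from -0.56 to 0.25 over the left-out libraries. Sox8 reversed to -0.088 with the deepest library thinned to the median depth of the others, a setting chosen after seeing the data, and ranged from -0.051 to 0.31 over the left-out libraries. Against Cdh5 alone the differences of Sox7, Sox17 and Sox18 were 0.41, -0.81 and -0.10. Against Krt14 alone that of Sox9 was -0.49. Sox7 and Sox9 then no longer separated the groups (exact permutation p = 0.2 for each). Sox17, whose groups overlapped against the list, separated them against Cdh5 (exact permutation p = 0.1). The cause was not tested. Low WT counts of Sox2 and Sox11 limit how precisely their folds are known.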
